A study of Mus musculus with 6 samples.

Results

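Genes of lipid, acyl-CoA and alcohol metabolism were followed at the level of single transcript isoforms in mouse duodenal crypt organoids exposed to BMP2. They were Elovl1, Acad11, Acss3, Tmem86b, Pla2g4a, Bscl2, Adh7 and C1qtnf12, and they were taken by name from the authors' deposited table of isoforms whose use differed between BMP2 and vehicle. The table's isoforms were selected on the q-value and the size of the usage difference in this same contrast. These 8 genes have 14 of the 302 isoforms and are among the 202 genes of that table. Duodenal crypt organoids are cultures of small intestinal epithelium grown from crypts, and BMP2 is a secreted growth factor of the bone morphogenetic protein family. Both groups were wild-type C57BL/6 organoids, treated on day 6 for 24 h with vehicle or with 100 ng/ml BMP2, with 3 libraries in each group. The labels do not say whether the 3 libraries came from separate mice or cultures. A q-value therefore speaks only for these libraries, and the spread between them may be technical.

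Usage, in percent, is how much of a gene's transcript pool one isoform supplies, and abundance is given as TPM, a transcript abundance scaled to the total of its library. Both are the authors' values for a condition, so they carry no replicate error here, and library depth is unknown. All 14 isoforms had q below 0.05 and a usage difference of at least 10 percentage points in either direction, as did every isoform of the table. That is how the genes were chosen, so the usage changes below are a description and not a test. The member nearest the difference threshold was Elovl1-207, with a change of -10.9 points, and the one nearest the q threshold was Adh7-201, with q = 0.0242 in the authors' deposited table. Isoforms absent from that table were not analysed here, and whether each of them missed these thresholds is not known.

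The enterocytes of the small intestine absorb fatty acids and retinol and rebuild them into lipids for export. The genes described here have separate functions, and not all of them belong to this absorption and export. ELOVL1 lengthens very long-chain fatty acids, ACAD11 belongs to the acyl-CoA dehydrogenases that oxidise them, and ACSS3 activates short-chain acids to acyl-CoA. The enzyme encoded by Pla2g4a is a cytosolic phospholipase that frees arachidonic acid from membranes, and TMEM86B is a lysoplasmalogenase, which cleaves the vinyl ether bond of lysoplasmalogens. Seipin, the product of Bscl2, sits in the endoplasmic reticulum where lipid droplets form. ADH7 is an alcohol dehydrogenase that also oxidises retinol, and C1qtnf12 encodes adipolin, a secreted protein related to C1q and TNF. The deposited isoform table shows the tissue only in part. Of 13 enterocyte markers it lists 1, Espn, and it lists none of the 32 markers of stem, goblet, Paneth, enteroendocrine, tuft, mesenchymal, immune or gastric surface cells, so cell composition could not be checked here.

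Usage rose with BMP2 for 7 of the 14 isoforms and fell for 7. Over all listed isoforms 45.0% rose and 55.0% fell. The median absolute usage difference was 20.8 points for the 14 isoforms and 20.2 points for all 302. Elovl1, Tmem86b, Bscl2 and Adh7 had isoforms on both sides. In each of these 4 genes the isoform with the largest gain started more than 50 bases away from the isoform with the largest loss, by 940 bases in Tmem86b, 1608 in Elovl1, 3052 in Bscl2 and 10291 in Adh7. Starts that far apart are common in this table, at 77.0% of the 87 genes with a gained and a lost isoform that could be compared. Isoform names and positions are those of GENCODE M21 on GRCm38.

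**Figure D1:**
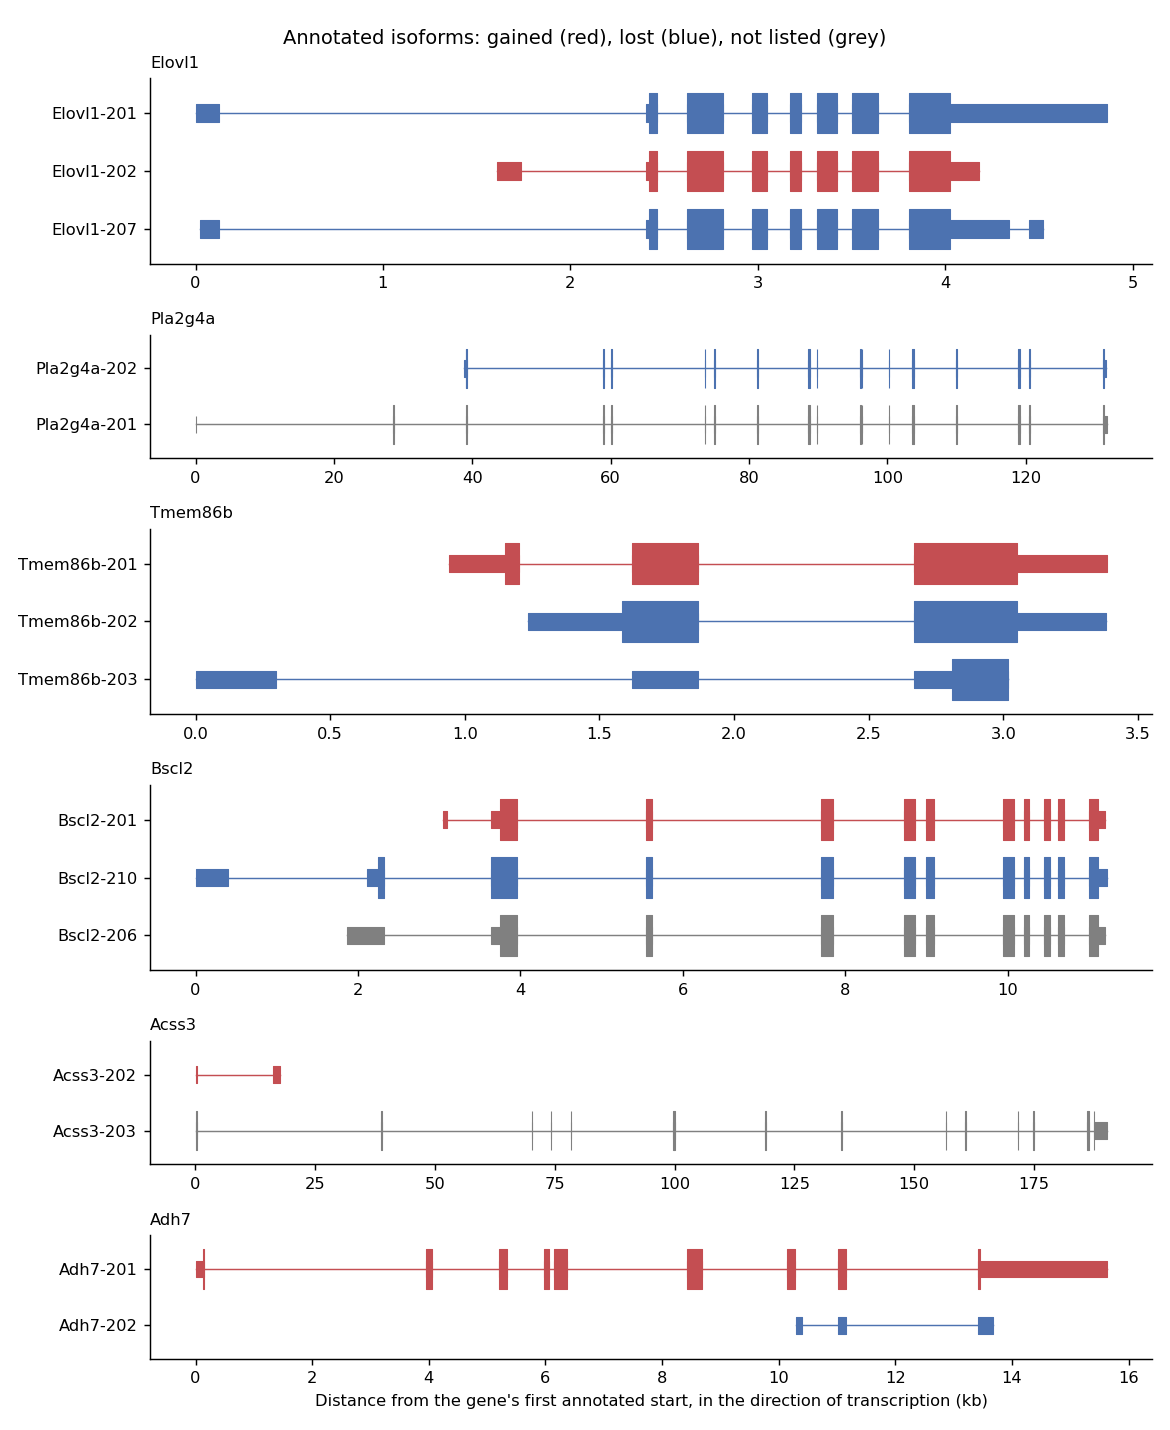
Exon maps of the listed isoforms of Elovl1, Pla2g4a, Tmem86b, Bscl2, Acss3 and Adh7, with one unlisted isoform each of Pla2g4a, Bscl2 and Acss3, against the distance in kb from the gene's first annotated start in the direction of transcription. Tall boxes are coding, low boxes are non-coding exon parts and lines are introns. Isoforms whose usage rose with BMP2 are red, those that fell are blue and unlisted ones are grey. Elovl1-202 starts 1608 bases into the gene, and Acss3-202 ends in its second exon.

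Elovl1 (chromosome 4, 118428093 to 118432953, plus strand, GRCm38) moved toward an internal start among listed isoforms that share one coding sequence. Elovl1-202 rose from 7.4% to 23.9% of the gene's transcripts (authors' deposited table, q = 3.73e-20). Elovl1-201 fell from 24.2% to 12.8% and Elovl1-207 fell from 38.9% to 28.0%, with q-values of 0.000294 and 0.000694 in the authors' deposited table. The coding sequence of these 3 isoforms is the same 837 bases, or 279 codons. The unlisted isoforms, among them Elovl1-203 with 606 coding bases, held 29.5% of the gene in vehicle and 35.3% in BMP2, so the coding output of the whole gene was not resolved. Of the 87 genes with a gained and a lost isoform, 4 had identical coding positions in both, and Elovl1 was one of them. The isoforms differ at their ends. The first exon of Elovl1-202 lies at 118429701 to 118429830, inside the first intron of Elovl1-201, whose first exon lies at 118428093 to 118428215. The last exon of Elovl1-202 ends at 118432272 and that of Elovl1-201 at 118432953, and Elovl1-207 has an additional non-coding exon at 118432538 to 118432613.

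The 250 bases upstream of the Elovl1-201 and Elovl1-202 starts are shown because the shares of the listed isoforms shifted between these starts. They were taken from RefSeq (GRCm38.p6, plus strand), at chr4:118427843-118428092 before Elovl1-201 and chr4:118429451-118429700 before Elovl1-202. Capitals mark every match, on either strand, to GGGCGG, the GC box, to GGCGCC, a GC-rich element, to AGGTCA, the half-site of many nuclear receptors, or to TATAAA.
Elovl1-201: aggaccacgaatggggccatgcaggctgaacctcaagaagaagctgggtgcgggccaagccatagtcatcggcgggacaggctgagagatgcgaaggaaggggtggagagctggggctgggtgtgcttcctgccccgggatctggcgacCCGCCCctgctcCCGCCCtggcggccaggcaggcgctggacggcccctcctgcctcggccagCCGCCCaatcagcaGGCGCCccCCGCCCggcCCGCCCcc
Elovl1-202: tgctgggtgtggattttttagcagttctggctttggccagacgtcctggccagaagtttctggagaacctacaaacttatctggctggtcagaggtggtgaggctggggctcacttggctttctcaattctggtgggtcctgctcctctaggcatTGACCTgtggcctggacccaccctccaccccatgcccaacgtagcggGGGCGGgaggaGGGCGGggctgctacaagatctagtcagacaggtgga
The window before Elovl1-201 had 72% G or C and 18 CG pairs, with 5 matches to GGGCGG and 1 to GGCGCC. The window before Elovl1-202 had 58% G or C and 5 CG pairs, with 2 matches to GGGCGG and 1 to AGGTCA, which begins 95 bases before the start. Over 32817 RefSeq windows of this length the medians were 52.4% G or C and 6 CG pairs. A match to GGGCGG was present in 32.7% of them, to AGGTCA in 14.0%, to TATAAA in 12.4% and to GGCGCC in 9.59%. GGGCGG and GGCGCC can overlap each other. These matches describe the letters and are not binding sites.

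Elovl1-207 was more abundant in BMP2 despite its smaller share. The authors' mean abundance of Elovl1-202 was 6.01 TPM with vehicle and 33.8 TPM with BMP2, which is 5.62-fold higher. That of Elovl1-207 was 31.5 and 39.7 TPM, and that of Elovl1-201 was 19.6 and 18.1 TPM. The gene level implied by abundance and usage was 80.9 TPM with vehicle and 141.5 TPM in BMP2. Elovl1-202 made up 45.8% of that difference and the unlisted isoforms 43.0%. In bulk RNA a different number of cells of a type and a different amount of RNA per cell cannot be told apart, which applies to all values here. Elovl1-202 has 130 bases, its first exon, that are in no other annotated isoform of the gene. Elovl1-207 has 0 such bases in GENCODE M21. By these models its value rests on splice junctions and on how reads were divided between isoforms. The authors' own models were not examined. Elovl1-201 shares 53 bases of its last exon with Cdc20 on the opposite strand.

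Acad11 (chromosome 9, 104063377 to 104127725, plus strand, GRCm38) kept the isoform that was already dominant. The full-length coding isoform Acad11-201, with 20 exons and 2337 coding bases, rose from 81.3% to 92.7% (authors' deposited table, q = 0.0191). Its authors' mean abundance was 14.3 TPM with vehicle against 89.0 TPM with BMP2, or 6.22-fold higher, the highest abundance in BMP2 of the 14 isoforms. The unlisted isoforms of the gene together stood at an implied 3.29 and 7.01 TPM. Acad11-201 thus made up 95.3% of the difference in the implied gene level. Its exons overlap Ackr4 on the opposite strand by 479 bases and Gm28305 on the same strand by 163 bases, in all 18.6% of its length. Whether the quantification used strand is not given in the sources used, so its values are uncertain.

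Acss3 (chromosome 10, 106933517 to 107123668, minus strand, GRCm38) showed a larger share of a short non-coding isoform while that isoform's abundance stayed near 1.4 TPM. Acss3-202 rose from 53.2% to 83.0% (authors' deposited table, q = 0.00398). Its authors' mean abundance was 1.38 TPM with vehicle against 1.47 TPM with BMP2. The unlisted isoforms, which in GENCODE M21 are the coding Acss3-201 and Acss3-203, stood at an implied 1.22 TPM with vehicle against 0.300 TPM with BMP2, 4.06-fold lower. The larger share therefore came with a lower abundance of the rest of the gene. Acss3-202 had the lowest mean abundance over both conditions of the 14 isoforms, at 1.43 TPM.

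Acss3-202 has 2 exons, the first shared with the coding isoforms and the second, of 1441 bases at 107105993 to 107107433, placed in the first intron of Acss3-203. The 30 bases on each side of the first splice junction are shown from the GENCODE M21 transcripts because they show where the isoforms part, with capitals for the codon that spans the junction in the frame of Acss3-203.
Acss3-202: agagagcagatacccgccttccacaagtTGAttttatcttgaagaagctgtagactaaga
Acss3-203: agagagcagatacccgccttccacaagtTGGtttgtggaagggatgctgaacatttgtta
Read from the start codon of Acss3-203, the frame in Acss3-202 runs for 98 codons and meets TGA at the junction, with 2 bases of the stop from the first exon and 1 from the second. Acss3-203 continues with TGG at this place and has 682 codons. Acss3-202 is annotated as a processed transcript with no coding sequence, and whether the 98 codons are translated was not measured.

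Pla2g4a (chromosome 1, 149829618 to 149961290, minus strand, GRCm38) had the largest usage change of the 14 isoforms. Pla2g4a-202 fell from 61.8% to 4.6% (authors' deposited table, q = 3.71e-14). Its authors' mean abundance was 11.1 TPM with vehicle against 0.0772 TPM with BMP2. The implied level of the unlisted isoforms was also lower, at 6.86 TPM with vehicle against 1.60 TPM with BMP2, or 4.28-fold. Both portions of the gene were thus lower in BMP2, with Pla2g4a-202 making up 67.7% of the difference in gene level. The fraction of 4.6% comes from a gene at an implied 1.68 TPM in BMP2.

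Pla2g4a-202 begins at 149922439, which is 38851 bases downstream of the start of Pla2g4a-201, and it lacks the first 2 exons of that isoform. The coding starts of the 2 isoforms are shown from the GENCODE M21 transcripts because they are the only part of the coding sequence that differs, with the bases of each isoform alone in capitals and the first 30 shared bases in lower case.
Pla2g4a-201: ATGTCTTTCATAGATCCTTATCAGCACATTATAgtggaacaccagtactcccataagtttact
Pla2g4a-202: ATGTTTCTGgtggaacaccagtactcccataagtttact
Pla2g4a-201 opens with 33 bases of its own and Pla2g4a-202 with 9. The remaining 2211 coding bases are identical, and the annotated lengths are 748 and 740 codons. Pla2g4a-202 has 196 bases, its first exon, that no other annotated isoform shares, and it overlaps 0 bases of other genes. Pla2g4a-201 was not among the listed isoforms, so its own level was not analysed here.

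Tmem86b (chromosome 7, 4628040 to 4631422, minus strand, GRCm38) gathered on the start of 1 of its 3 listed isoforms. Tmem86b-201 rose from 47.9% to 84.4% (authors' deposited table, q = 5.84e-20). Tmem86b-202 fell from 25.2% to 9.4% and Tmem86b-203 fell from 23.0% to 3.9%, with q-values of 0.000101 and 9.53e-07 in the authors' deposited table. These 3 isoforms held 96.1% of the gene in vehicle and 97.7% in BMP2, so little was left to unlisted ones. The authors' mean abundance of Tmem86b-201 was 3.50 TPM with vehicle and 25.8 TPM with BMP2, a 7.38-fold difference that made up 95.8% of the difference in gene level. The losing isoforms differed less in abundance, with Tmem86b-202 at 1.84 and 2.88 TPM and Tmem86b-203 at 1.67 and 1.20 TPM. For both, the fall in usage was set against a gene level 4.19-fold higher.

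The first exon of Tmem86b-203 lies farthest upstream, at 4631123 to 4631422, that of Tmem86b-201 at 4630222 to 4630482, and that of Tmem86b-202 at 4629556 to 4630187, where it runs without a break into the exon that the others splice to. The coding starts of Tmem86b-201 and Tmem86b-202 are shown because this change of first exon replaces the first codons, with the bases of each isoform alone in capitals.
Tmem86b-201: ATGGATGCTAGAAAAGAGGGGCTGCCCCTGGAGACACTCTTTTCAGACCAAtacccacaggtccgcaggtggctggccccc
Tmem86b-202: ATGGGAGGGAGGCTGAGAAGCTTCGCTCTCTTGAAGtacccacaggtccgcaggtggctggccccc
Tmem86b-201 has 51 bases of its own at the start and Tmem86b-202 has 36, and the 627 bases after them are identical. The lengths are 226 and 221 codons. The annotated coding part of Tmem86b-203 is 208 bases and the model is marked as incomplete at its end. Tmem86b-201 shares 165 bases, all in its first exon, with Gm44877 on the opposite strand, so its values are uncertain. Tmem86b-202 and Tmem86b-203 share 0 bases with other genes.

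Bscl2 (chromosome 19, 8837467 to 8848683, plus strand, GRCm38) changed its isoforms at a nearly equal gene level. The implied level was 12.2 TPM with vehicle and 13.1 TPM with BMP2, a ratio of 1.08. Bscl2-201 rose from 68.5% to 90.9% (authors' deposited table, q = 0.000316), with an authors' mean abundance of 8.36 and 11.96 TPM. Bscl2-210 fell from 20.8% to 3.7% (authors' deposited table, q = 8.24e-11), with 2.53 TPM in vehicle and 0.482 TPM in BMP2, or 5.25-fold lower. The 2 isoforms encode seipin with different starts.

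The start of the longer coding sequence is shown from the GENCODE M21 transcripts because it holds the whole coding difference, in capitals up to the start codon of the shorter one and followed by the first 30 bases that both share.
Bscl2-210: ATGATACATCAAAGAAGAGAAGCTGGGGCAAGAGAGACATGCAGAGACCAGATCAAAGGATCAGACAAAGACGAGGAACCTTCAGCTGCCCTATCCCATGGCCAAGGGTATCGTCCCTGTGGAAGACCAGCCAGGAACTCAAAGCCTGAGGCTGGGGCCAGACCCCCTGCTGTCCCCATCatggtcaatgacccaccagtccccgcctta
Bscl2-201: atggtcaatgacccaccagtccccgcctta
Bscl2-210 has 443 codons and Bscl2-201 has 383, so the isoform that lost usage carries 60 additional codons at its start, and the other 1149 bases are identical. Bscl2-210 begins at 8837467 and Bscl2-201 at 8840519. The coding sequence of the unlisted Bscl2-206, which begins at 8839328, is identical to that of Bscl2-201. The unlisted Bscl2-203 has the same coding positions and begins at 8837729, within the first exon of Bscl2-210. Usage of the listed isoforms therefore does not cover the whole shorter form, which is also annotated from the upstream start. The first exon of Bscl2-210, 398 bases, lies entirely within exons of Gng3 on the opposite strand, and 239 further bases overlap AC129217.1 on the same strand. Together this is 32.5% of the isoform, the highest share of the 14, and the Bscl2-210 values are uncertain for that reason. Bscl2-201 has 16 bases that no other annotated isoform of the gene shares, and 30 of its bases overlap AC129217.1 on the same strand. By these models its values also rest in part on splice junctions and on how reads were divided between isoforms.

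Adh7 (chromosome 3, 138217760 to 138233382, plus strand, GRCm38) was low in both conditions and moved toward its coding isoform. Adh7-201, with 9 exons and 1122 coding bases, rose from 31.2% to 56.0% (authors' deposited table, q = 0.0242). Adh7-202 fell from 68.8% to 40.2% (authors' deposited table, q = 0.0121). Adh7-202 is a processed transcript of 502 bases that starts 6 bases after the end of the 7th exon of Adh7-201 and shares 389 bases with its last 2 exons. It lies downstream of 961 of the 1122 coding bases. The authors' mean abundance of Adh7-201 was 0.435 TPM with vehicle against 3.17 TPM with BMP2, and that of Adh7-202 was 0.974 and 2.32 TPM. Both isoforms were thus more abundant in BMP2, Adh7-201 by 7.28-fold and Adh7-202 by 2.38-fold, from means that are under 1 TPM in vehicle. With 1 TPM added to each mean, the log2 ratio was 1.54 for Adh7-201 and 0.75 for Adh7-202. Adh7-202 has 113 bases of its own in GENCODE M21, so by these models reads from the last exons had to be divided between the isoforms. Adh7-201 shares 108 bases of its first exon with 0610031O16Rik on the opposite strand, or 3.15% of its length.

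C1qtnf12 (chromosome 4, 155962318 to 155966629, plus strand, GRCm38) had the highest ratio of gene level of the 8. Its only annotated coding isoform, C1qtnf12-201, of 8 exons and 924 coding bases, rose from 44.7% to 87.0% (authors' deposited table, q = 0.00288). Its authors' mean abundance was 1.92 TPM with vehicle against 26.8 TPM with BMP2, a 13.9-fold difference. The unlisted isoforms stood at an implied 2.38 TPM with vehicle against 4.01 TPM with BMP2, a ratio of 1.68. The coding isoform made up 93.9% of the difference in gene level, and it overlaps 0 bases of other genes.

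**Figure D2:**
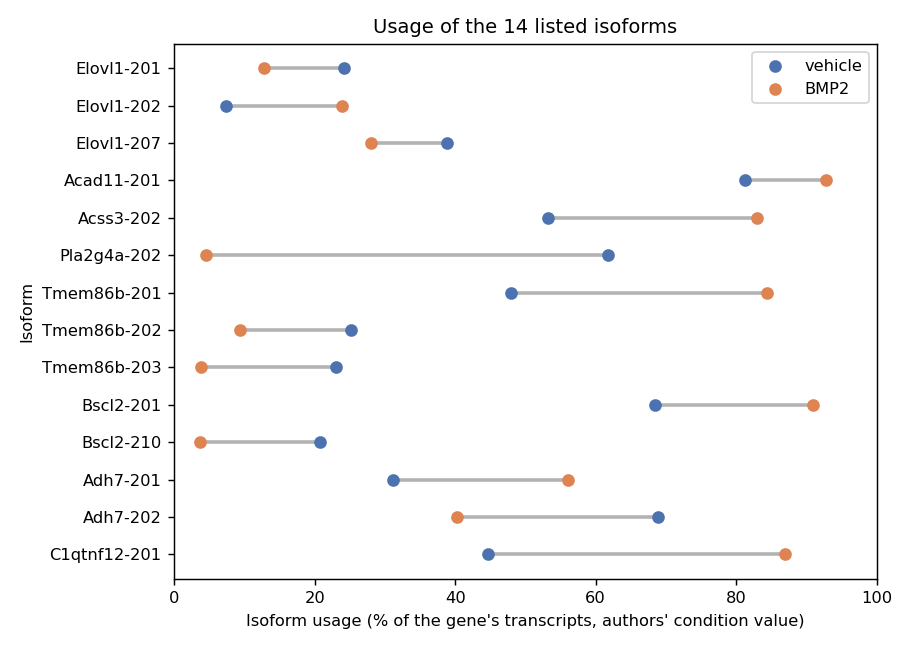
Usage of the 14 listed isoforms, as the authors' value in percent of the gene's transcripts, in vehicle (blue) and in BMP2 (orange), joined by a grey line. Pla2g4a-202 has the longest line, from 61.8% to 4.6%, and C1qtnf12-201 the longest toward higher usage, from 44.7% to 87.0%.

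Usage and abundance went the same way for the gaining isoforms. All 7 isoforms that rose in usage had a higher mean TPM in BMP2, from 1.06-fold in Acss3-202 to 13.9-fold in C1qtnf12-201. Except in Acss3-202, this follows from a larger share of a gene whose implied level was also higher. Acss3-202, at 1.38 and 1.47 TPM, was nearly level, with no replicate error at hand. Of the 7 that fell in usage, 3 had a higher mean TPM, namely Elovl1-207, Tmem86b-202 and Adh7-202, and 4 a lower one. The same split was not counted over all listed isoforms, so these counts have no share to be read against. On the scale of log2(TPM + 0.1), 6 of the 14 isoforms were over 2-fold higher in BMP2 and 2 were over 2-fold lower. Over all listed isoforms the shares were 24.8% and 34.1%. The median log2 ratio was 0.56 for the 14 isoforms and -0.18 for all 302. These values have no test, and the genes were chosen with them known.

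**Figure D3:**
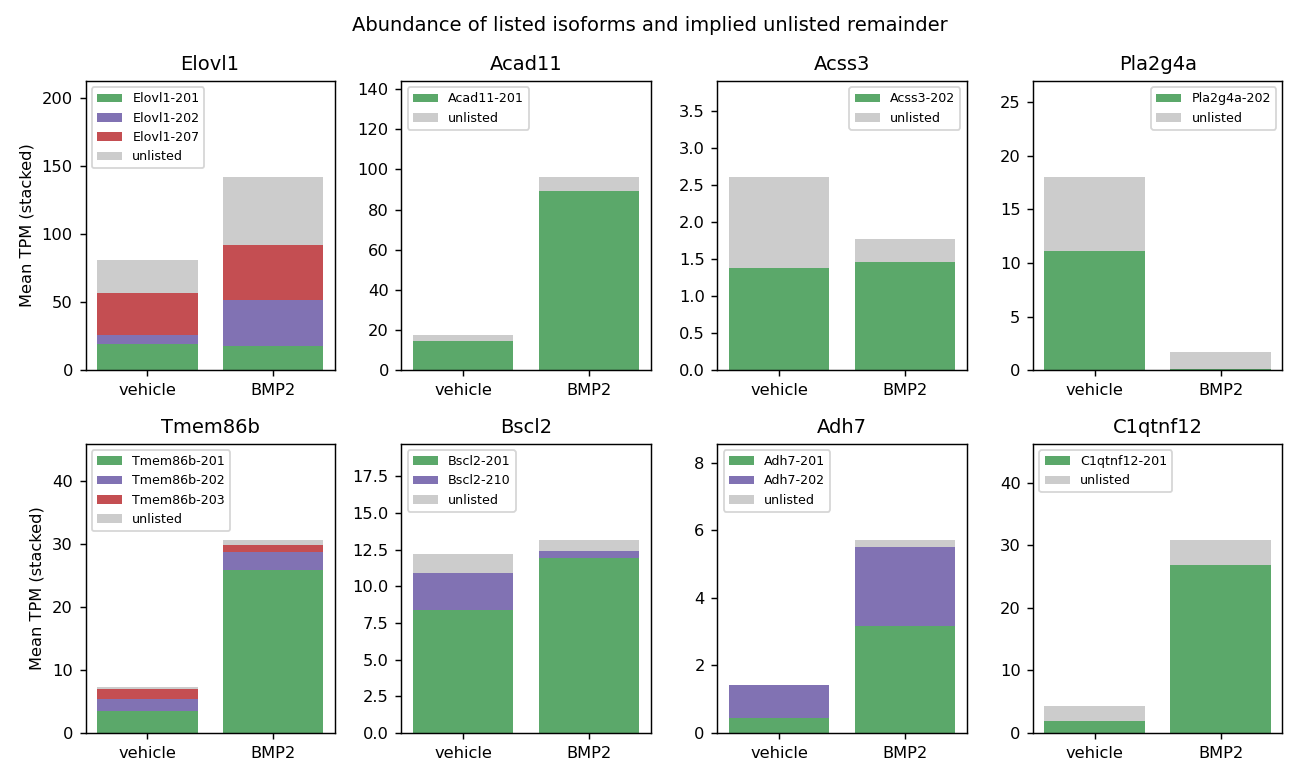
Mean abundance in TPM (authors' condition means) of each listed isoform, stacked, with the implied remainder of unlisted isoforms in grey, in vehicle and BMP2 for each of the 8 genes; each panel has its own axis from 0. In Acad11, Tmem86b and C1qtnf12 a single isoform fills most of the BMP2 bar, whereas in Pla2g4a the listed isoform is at 0.0772 TPM in BMP2.

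At the level of whole genes, C1qtnf12, Acad11, Tmem86b and Adh7 were over 2-fold higher in BMP2, Pla2g4a was over 2-fold lower, and Elovl1, Bscl2 and Acss3 lay within 2-fold. Over the 195 genes with an implied level, 11.3% exceeded a 2-fold higher level and 31.8% a 2-fold lower one. The log2 ratios, in order, were 2.84 for C1qtnf12, 2.45 for Acad11, 2.07 for Tmem86b, 2.02 for Adh7, 0.81 for Elovl1, 0.11 for Bscl2, -0.56 for Acss3 and -3.42 for Pla2g4a. The implied RNA levels for fatty acid elongation and oxidation, the lysoplasmalogenase, the alcohol dehydrogenase, seipin and the secreted factor were thus higher. For seipin the ratio was near 1. Those for the phospholipase and the short-chain acyl-CoA synthetase were lower. A higher implied level of any size was found for 6 of the 8 genes and for 47.2% of the 195. The neighbours Tmem86b and Adh7 differ by less than 0.1 in log2 ratio, and no replicate error is at hand to order them. The median was 1.41 for the 8 genes and -0.12 for all 195. With no value per library, none of these ratios has a test.

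**Figure D4:**
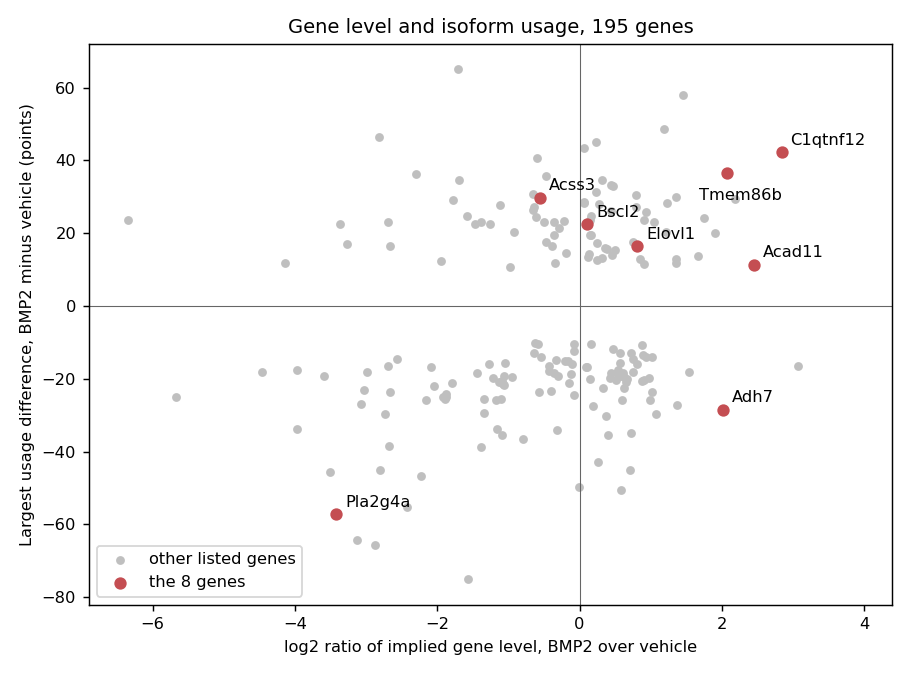
Largest usage difference of a listed isoform of each gene (BMP2 minus vehicle, in percentage points) against the log2 ratio of implied gene level (BMP2 over vehicle) for 195 genes, with the 8 genes in red and labelled. C1qtnf12, Tmem86b and Acad11 lie to the upper right, Pla2g4a to the lower left, and Bscl2 near a ratio of 0 with a usage gain of 22.4 points.

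Of 163 genes on 7 lists of lipid and retinol metabolism, the authors' deposited table held 8, all of them the genes described here. Each list was written with these genes known and holds at least 1 of them, so this outcome was set in advance. The lists are also not complete. For example, Dgka, which encodes a diacylglycerol kinase, was in the deposited table and is on none of them. It need not be the only such gene. The number of genes the authors assessed is not known, so this count has no share over all genes to be read against. Elovl1 was the only one of 21 genes of fatty acid elongation and desaturation, Acad11 of 26 of fatty acid oxidation, Acss3 of 16 acyl-CoA synthetases, Bscl2 of 29 of lipid droplets and triglyceride, Adh7 of 28 of alcohol and retinol oxidation, and C1qtnf12 of 14 secreted factors. Pla2g4a and Tmem86b were 2 of 29 genes of phospholipid and plasmalogen turnover. The isoforms of the other genes were not analysed here.

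For each gene the isoform with the largest usage difference was set beside the isoform of another gene nearest to it in vehicle and BMP2 usage. The closest match was Trmt10b-206, at 6.5% and 23.0%, to Elovl1-202, with a distance of 1.27 percentage points. Trmt10b encodes a tRNA methyltransferase, and Trmt10b-206 had an authors' mean abundance of 0.634 and 1.71 TPM. The loosest was Cep128-210, at 56.4% and 9.8%, to Pla2g4a-202, with a distance of 7.50 points. The others were Dgka-201 for Acad11-201, Rab11fip3-201 for Acss3-202, Ptpn6-203 for Tmem86b-201, Dpp7-201 for Bscl2-201, Utrn-206 for Adh7-202 and Ldb3-201 for C1qtnf12-201. Dgka, which encodes a diacylglycerol kinase, is the lipid enzyme among them, and Dgka-201 was at 82.5% in vehicle and 95.3% in BMP2. The likeness is in the pair of usage values alone.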

How the data were processed

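Total RNA from 6 organoid libraries, 3 per condition, was sequenced. The submitters' processing notes name kallisto 0.46.1 and the build mm39. The deposited table has the column layout of IsoformSwitchAnalyzeR, but its version, the annotation, the test behind the q-values and the use of strand are not given in the sources used. The authors computed isoform fractions per condition, their difference and the q-value of each usage change, per the file headers. The authors' rank of each isoform, a score per the file headers, was not used for any result. The ranks run to 380 with 78 absent, and the reason for the gaps is not given in the sources used. TPM columns hold the authors' means per condition, per the file headers. Since TPM holds no depth, no interval could be put on a fraction.

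From these, usage was written as a percent, and an implied gene level was computed per condition as the summed TPM of the listed isoforms over their summed fraction. It could be computed for 195 of 202 genes. The unlisted remainder is that level times the unlisted fraction. For the 4 genes with several listed isoforms, the levels these isoforms gave differed by 0.188% to 1.80%. The level script was tested on simulated data. Isoforms were matched by stable identifier to GENCODE M21 (GRCm38), all 14 with a version 1 step lower than in the deposited table, and ends of exons can differ from the authors' models. Coding lengths leave out the stop codon. Promoter windows are RefSeq's (GRCm38.p6), and no window was used for Acss3 or C1qtnf12. No coordinates were converted.

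The 8 genes, the gene lists and the thresholds were chosen with earlier results of these data known. The rule for named genes took all 8 with every listed isoform, genes on the lists that were in the table, genes overlapping a member and the nearest isoform in usage. No test across libraries was run, since values per library were not used here; the design's alternative of a fit per library was not applied. Settings tried were q below 0.01, a usage difference above 0.2, a mean TPM of at least 5, a level of at least 5 TPM, a pseudocount of 1 TPM and the most used isoform alone. Scripts used Python 3.11.15 with pandas 2.3.3.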

Additional observations from a re-analysis of the deposited data

How the results depend on the processing

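Of the 14 usage calls, 11 passed a q of 0.01, 5 gained and 6 lost. Over all 302 listed isoforms, 98 of the 136 gained and 124 of the 166 lost passed it. With a usage difference over 0.2 required, 7 of the 14 were left, 5 gained and 2 lost (Pla2g4a-202 and Adh7-202). With a mean TPM of at least 5 required, 8 were left, 5 gained and 3 lost. Neither the difference nor the TPM setting was counted over all listed isoforms, so those counts have no share beside them. A minimum gene level of 5 TPM in each condition left 4 genes, with 2 (Acad11 and Tmem86b) over 2-fold higher and 0 over 2-fold lower, since Pla2g4a, Adh7, C1qtnf12 and Acss3 fell under that level. A pseudocount of 1 TPM moved the log2 ratio of a gene level by up to 0.60, in Pla2g4a. In place of 0.1 TPM it moved the log2 ratio of isoform abundance from -5.98 to -3.49 in Pla2g4a-202 and from 2.61 to 1.54 in Adh7-201. The most used isoform alone, which can differ only in the 4 genes with several listed isoforms, moved a gene level by up to 0.02. With a pseudocount of 1 TPM, 5 isoforms were over 2-fold higher in place of 6. No paired analysis was possible because the columns hold means per condition and carry no replicate number, and leaving out each replicate was not run for the same reason. Depth is unknown, so values under about 1 TPM, such as Pla2g4a-202 in BMP2 and Adh7-201 in vehicle, have unknown precision.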
